A study of Mus musculus with 4 samples.

Results

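*Notch1*-high cells were epithelial cells of cultured urogenital sinus explants that held 3 or more UMIs (unique molecular identifiers, each counting 1 captured RNA molecule) of the receptor gene *Notch1* on day 3 or day 6 of culture. They were chosen by measured values: more than 1000 genes and under 7.5% mitochondrial UMIs, at least 1 UMI of *Epcam*, under 2 UMIs of *Pax2*, at least 3 of *Notch1*, under 3 of *Vcan* and under 5 of *Krt4* and *Psca* together. This gave 244 cells, 73 of day 3 and 171 of day 6, out of 7474 cells in the explant library and 19148 cells in the 4 libraries of the series. They were compared with 964 cells that met the same limits but held no *Notch1* UMI, 320 of day 3 and 644 of day 6. Levels of *Notch1*, *Epcam*, *Pax2*, *Vcan*, *Krt4* and *Psca* were therefore set by the choice and are described without being read as results.

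The series holds droplet-based single-cell RNA-seq of mouse epithelium, with 3 libraries of adult prostates and 1 of explants, all from the ICR (CD-1) strain. For the explants, urogenital sinuses of E15.5 embryos were grown on membrane filters over a steel mesh, in medium with insulin, transferrin, selenite and 10 μM dihydrotestosterone, the androgen that drives prostate budding. EPCAM+ cells were sorted at day 0, 1, 3 and 6, each day received its own MULTI-seq barcode, a short oligonucleotide that anchors in cell membranes, and all days were pooled in 1 library. Explants without androgen were not analysed here, and the labels name no mutant allele or transgene for the explants. Each day is 1 pool of explants in 1 library, so no replicate error exists, no test was made and no p-value is given. Intervals are exact 95% intervals of counts, which cover counting error only and leave out differences between cells, explants and pools.

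Notch receptors are membrane proteins that are activated by Delta-like and Jagged ligands on neighbouring cells. After ligand binding the receptor is cleaved by ADAM proteases and then by gamma-secretase, and its intracellular domain enters the nucleus, where it joins RBPJ and a Mastermind coactivator to switch on genes such as *Hes1*, *Hey1* and *Nrarp*. In stratified and glandular epithelia the pathway is known for its part in choices between basal and luminal fates and in the control of progenitor growth.

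MULTI-seq barcodes gave the day of each cell, so those below are the sequences on which every comparison between days rests. They are given 5′ to 3′, and every base is in capitals because the whole barcode identifies the day.
Day 3 barcode: CCAACCGG
Day 6 barcode: TGACCGAT
A cell was given to a day where the count of 1 barcode was at least 3 times that barcode's median in the library and at least 2 times the next barcode's ratio. The median top ratio was 8.47 in day 3 cells and 7.69 in day 6 cells, against 1.13 and 1.20 for the next barcode. In all, 1086 cells were given to day 3 and 2568 to day 6, and 1073 of the 6614 cells within the limits on genes and mitochondrial UMIs received no day.

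Among the cells within all other limits, 12.7% (73 of 576, exact 95% interval 10.1 to 15.7) were *Notch1*-high on day 3 and 12.8% (171 of 1333, 11.1 to 14.7) on day 6. Under the same rule the share was 6.86% (40 of 583) on day 0 and 6.54% (39 of 596) on day 1. The limit on *Vcan* and that on *Krt4* and *Psca* removed more *Notch1*-high cells than the others: of 158 day 3 cells with 3 or more *Notch1* UMIs, 155 met the *Epcam* and *Pax2* limits, 97 also the *Vcan* limit and 73 all limits, and on day 6 the numbers were 365, 361, 190 and 171. *Notch1* was not restricted to the cells retained. Its summed level was 54.6 CPM (UMIs of the gene per 1000000 UMIs of the sum) on day 3 and 78.6 CPM on day 6 in cells over the *Vcan* limit, and 71.3 and 81.4 CPM in cells over the *Krt4* and *Psca* limit, against 55.7 and 82.8 CPM in all cells within the limits.

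*Notch1*-high cells held more UMIs in all than the cells they were compared with, a gap that the limit of 3 *Notch1* UMIs itself favours. Their median number of UMIs was 17174 against 14450 on day 3 and 15304 against 11315.5 on day 6, and the gap was wider on day 0 (28896 against 15841) and day 1 (26220 against 14988.5). Within the chosen cells *Notch1* reached 9 UMIs in 1 cell on day 3 and 16 UMIs on day 6, with summed levels of 203 and 273 CPM. Levels were compared as CPM of the summed UMIs, 1401085 against 4822001 UMIs on day 3 and 2858878 against 7788825 on day 6. The main comparison was repeated with the *Notch1* = 0 cells weighted to the depth of the *Notch1*-high cells, with every cell thinned to 5000 UMIs, and within cells of low cell cycle expression. Of the 15 genes named as called higher, 9 were no longer past 1.5-fold on both days with the weighting, 2 with thinning and 10 in cells under the median of cell cycle expression, among them *Nusap1* and *Pbk*, which had no UMI in those cells on day 6. Of the 15 named as called lower the numbers were 4, 2 and 3. The limits on *Vcan* and on *Krt4* and *Psca* were on raw UMIs, and so were stricter in CPM for deeper cells. Without these limits, the calls of 7 of the 15 named as higher and 6 of the 15 named as lower ended. Cells under the cell cycle median were chosen by their share of UMIs from S phase and G2/M genes. The values of cell cycle genes in those cells were therefore partly set by the choice and are not read as results.

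The label was checked against markers. Epithelial keratins were abundant in the *Notch1*-high cells of both days, with *Krt15* at 5362 and 5102 CPM, *Krt14* at 1744 and 1570 CPM, *Krt5* at 1437 and 1625 CPM and *Krt8* at 882 and 1053 CPM. The prostatic regulator *Hoxb13* was at 42.1 and 56.7 CPM. Endothelial markers summed to 0.714 CPM on day 3 and 1.75 CPM on day 6 with 5 of 6 genes at 0 on both days, immune markers to 2.14 and 0.350 CPM with 7 of 8 at 0, and red blood cell genes to 0.714 and 0.350 CPM with 4 of 5 at 0. Most mesenchymal collagens were near 0, but *Dcn*, which encodes the matrix proteoglycan decorin, was at 293 and 246 CPM, under the 424 and 444 CPM of *Notch1* = 0 cells. The mesenchyme marker *Vim* went the other way, at least 1.5-fold higher in *Notch1*-high cells on both days, with log2 ratios of 0.65 and 0.79. Mesonephric duct markers were present, and their sum was lower than in *Notch1* = 0 cells. The 6 genes outside the rule summed to 499 against 975 CPM on day 3 (ratio 0.512, 0.472 to 0.554) and 296 against 519 CPM on day 6 (0.571, 0.529 to 0.615). *Wfdc2* alone gave 463 of 699 UMIs against 3712 of 4702 on day 3, and 421 of 846 against 2414 of 4040 on day 6. *Gata3* had ratios of 0.997 (0.848 to 1.17) and 0.782 (0.691 to 0.884), and *Hoxb7* was at least 1.5-fold lower on both days. The 9 urothelium markers summed to 653 against 908 CPM and to 650 against 863 CPM. *Upk3a*, which encodes a uroplakin of the urothelial surface, did not follow the sum on day 6, with 166 against 211 CPM on day 3 (ratio 0.789, 0.682 to 0.911) and 245 against 143 CPM on day 6 (1.72, 1.56 to 1.89). Its UMIs came from 16.4% of the *Notch1*-high and 12.2% of the *Notch1* = 0 cells on day 3, and from 13.5% and 9.78% on day 6. On day 3, 1 *Notch1*-high cell held 135 of 233 UMIs and 1 *Notch1* = 0 cell held 166 of 1016. On day 6 the numbers were 197 of 700 and 131 of 1110. The intervals of *Upk3a* do not cover this spread between cells. The comparison below was repeated without cells holding 2 or more UMIs of *Upk1a*, *Upk1b*, *Upk2*, *Upk3a*, *Upk3b*, *Hoxb7*, *Sox17*, *Pax8* and *Lhx1* together. This kept 160 *Notch1*-high cells, and 192 of 320 and 399 of 644 *Notch1* = 0 cells on days 3 and 6. *Wfdc2*, *Gata3* and *Foxq1* were not used, and the limit was on raw UMIs, so the part of these 2 cell types itself was not measured. Leaving these cells out ended the call of 4 of the 15 genes named as higher and of 9 of the 15 named as lower.

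Of 5160 genes outside the rule with enough counts to be compared (at least 30 UMIs predicted in the *Notch1*-high sum on each day), 56 were at least 1.5-fold higher in *Notch1*-high cells on both days, which is 1.09%, and 50 were at least 1.5-fold lower on both, which is 0.969%. These are called higher and lower below, and counts of calls in gene lists are to be read against these shares. On single days, 127 were higher and 140 lower on day 3, and 168 higher and 195 lower on day 6. The median log2 ratio over all tested genes was 0.01 on day 3 and 0.03 on day 6, where scaling to CPM holds it near 0. Few genes were called, led by *Ccnd1* among the higher and by *Ndrg1* and *Ero1l* among the lower. Of 15 alternative comparisons, 13 could move the ratio of a gene, and 2 changed only which genes were tested.

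Receptors and ligands were examined first. The other receptor detected with *Notch1* at a higher level was *Notch3*: its level was 17.1 CPM in *Notch1*-high cells and 6.01 CPM in *Notch1* = 0 cells on day 3 (ratio 2.85, 1.59 to 5.07), and 10.8 against 3.21 CPM on day 6 (3.38, 1.93 to 5.97). Its counts were small, 24 UMIs from 20 cells and 31 UMIs from 28 cells, and fell short of the 30 predicted UMIs required for a call. *Notch2* was at 9.28 against 10.6 CPM on day 3 and 10.8 against 9.76 CPM on day 6, and both intervals included 1. *Notch4* gave 0 and 3 UMIs in the *Notch1*-high cells.

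Of the 3 ligand genes that could be tested, 0 were called higher and 1 lower. This was *Dlk2*, a Delta-like protein without the domain of the classical ligands, at 12.1 against 24.3 CPM on day 3 (ratio 0.500, 0.282 to 0.835) and 17.8 against 34.5 CPM on day 6 (0.517, 0.375 to 0.699). Its relative *Dlk1* was at 56.4 against 93.1 CPM and 61.6 against 90.9 CPM, with ratios of 0.606 (0.471 to 0.771) and 0.677 (0.571 to 0.80). Both were lower by their intervals on both days, although *Dlk1* missed 1.5-fold on day 6. *Dlk2* stayed past 1.5-fold in 8 of the 13 alternatives and was at log2 ratios of -0.72 and -0.12 when weighted by depth. *Dlk1* turned on day 3 in cells under the median of cell cycle expression, to a log2 ratio of 0.24, and to 0.61 with depth weighting added.

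Among the classical ligands, *Jag2* was at 35.7 against 41.7 CPM on day 3 (ratio 0.856, 0.615 to 1.17) and 35.0 against 61.0 CPM on day 6 (0.574, 0.458 to 0.713). *Jag1* leaned the other way, with 17.1 against 10.6 CPM (1.62, 0.953 to 2.68) and 18.9 against 14.4 CPM (1.31, 0.931 to 1.83), and neither day's interval left out 1. *Dll1* was at 1.43 against 4.56 CPM and 4.20 against 7.45 CPM, from 2 and 12 UMIs in the *Notch1*-high cells. *Dll4* gave no UMI in either group on either day, and *Dll3* at most 9 UMIs in any sum.

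Genes of receptor processing and of the nuclear complex were close to equal. Of 25 processing, glycosylation and turnover genes measured, 8 could be tested and none was called, with median log2 ratios of -0.13 and 0.01. The protease gene *Adam10*, for instance, was at a ratio of 1.10 (0.883 to 1.35) on day 3 and 1.20 (1.03 to 1.41) on day 6, and *Psenen*, a gamma-secretase subunit, at 0.916 (0.765 to 1.09) and 0.984 (0.869 to 1.11). Of the 9 nuclear complex genes 7 were tested and none was called. *Rbpj*, the DNA-binding partner of the Notch intracellular domain, had ratios of 0.946 (0.67 to 1.31) and 0.999 (0.781 to 1.27). The fringe genes *Lfng*, *Mfng* and *Rfng*, which modify the receptor with sugars, had too few counts to be called. *Lfng* gave 8 and 17 UMIs in the *Notch1*-high cells, *Rfng* 7 and 13, and *Mfng* none.

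**Figure D1:**
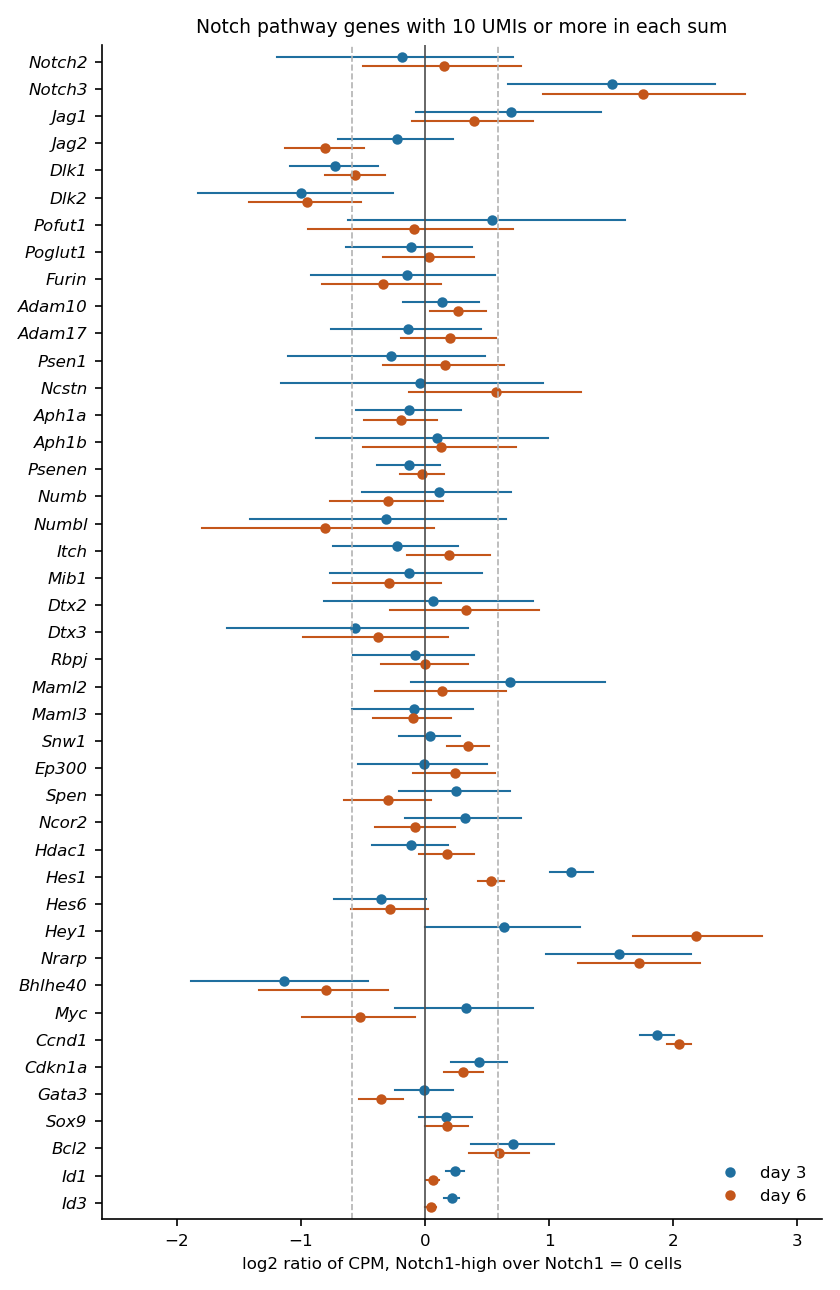
Ratio of CPM between *Notch1*-high and *Notch1* = 0 cells, on a log2 axis, for the 43 Notch pathway genes with at least 10 UMIs in each of the 4 sums. Points are day 3 (blue) and day 6 (orange), bars are exact 95% intervals of the counts, and dashed lines mark 1.5-fold. *Notch3*, *Hes1*, *Nrarp*, *Ccnd1* and *Bcl2* lie right of 0 on both days with their intervals, as do *Cdkn1a*, *Id1* and *Id3* by less than 1.5-fold. *Dlk1*, *Dlk2* and *Bhlhe40* lie left, and processing and nuclear complex genes stand around 0.

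Of the direct targets, *Nrarp* and *Hes1* were higher by their intervals on both days, but neither was called. *Nrarp*, which encodes a feedback inhibitor of Notch signalling, was at 34.3 CPM in *Notch1*-high cells and 11.6 CPM in *Notch1* = 0 cells on day 3 (ratio 2.95, 1.96 to 4.42), and at 28.0 against 8.47 CPM on day 6 (3.30, 2.35 to 4.65). The counts were spread over cells, with 48 UMIs from 34 of 73 cells and 80 UMIs from 55 of 171 cells and no more than 5 in 1 cell. *Nrarp* fell just short of the counts required for a call on day 3, yet its log2 ratio stayed between 1.22 and 1.79 on day 3 and between 1.43 and 2.07 on day 6 in the 13 alternative comparisons.

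*Hes1*, a transcriptional repressor and the best known target, was the most abundant of these genes, with 328 against 145 CPM on day 3 (ratio 2.26, 2.01 to 2.55) and 391 against 271 CPM on day 6 (1.45, 1.34 to 1.56). The day 6 ratio was just under 1.5, so *Hes1* was not called. Its level in *Notch1* = 0 cells was higher on day 6 than on day 3. Thinned to 5000 UMIs a cell, the mean was 1.81 against 0.676 *Hes1* UMIs on day 3 and 1.98 against 1.35 on day 6.

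*Hey1*, a related repressor, was at 23.6 against 15.1 CPM on day 3 (ratio 1.56, 0.999 to 2.38) and at 30.4 against 6.68 CPM on day 6 (4.56, 3.2 to 6.56). The day 3 value rested on 33 UMIs from 11 cells, and the day 6 value on 87 UMIs from 45 cells. In cells under the median of cell cycle expression, the log2 ratio of *Hey1* was 0.05 on day 3 and 1.86 on day 6, and that of *Notch3* -0.29 and 1.40, whereas *Nrarp* was at 1.55 and 1.66 and *Hes1* at 1.52 and 0.68. *Heyl* gave 4 UMIs in the *Notch1*-high cells of each day, against 1 and 4 in *Notch1* = 0 cells. *Hey2* and *Hes3* gave no UMI in any of the sums, and *Hes5* gave 2 UMIs in *Notch1* = 0 cells of day 6.

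Over the list of 20 target genes outside the rule, 11 were tested, 2 were called higher (*Ccnd1* and *Bcl2*) and 1 lower (*Bhlhe40*). Over all tested genes 1.09% were called higher and 0.969% lower. The median log2 ratio of the list was 0.24 on day 3 and 0.06 on day 6, against 0.01 and 0.03 over all tested genes. *Bcl2*, which encodes an inhibitor of cell death, was at 80.7 against 49.4 CPM (ratio 1.63, 1.29 to 2.05) and 76.6 against 50.6 CPM (1.51, 1.28 to 1.79), and was already higher on day 0 (1.54) and day 1 (1.79). Without cells holding markers of other types its log2 ratios were 0.38 and 0.45, under 1.5-fold. *Bhlhe40*, a repressor of the circadian and hypoxia responses, was at 14.3 against 31.3 CPM and 13.6 against 23.8 CPM, and stayed past 1.5-fold in 7 of the 13 alternatives, with a log2 ratio of -0.34 on day 6 when weighted by depth and -0.28 when thinned. *Id1*, *Id3*, *Sox9* and *Cdkn1a* were within 1.5-fold on both days, and *Myc* was at a ratio of 1.25 (0.846 to 1.83) on day 3 and 0.694 (0.502 to 0.946) on day 6.

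*Ccnd1*, which encodes cyclin D1, the partner of CDK4 and CDK6 in leaving G1, had the highest ratio on each day among the 15 genes named as called higher. It was at 653 CPM in *Notch1*-high cells against 179 CPM in *Notch1* = 0 cells on day 3 (ratio 3.66, 3.33 to 4.02), and at 772 against 187 CPM on day 6 (4.12, 3.86 to 4.41). These are log2 ratios of 1.87 and 2.04. In the 13 alternatives its log2 ratio lay between 1.06 and 2.21 on day 3 and between 0.79 and 2.38 on day 6, so its size was not fixed. The gene had been far closer between the groups earlier, at 231 against 167 CPM on day 0 (1.38, 1.22 to 1.57) and 151 against 129 CPM on day 1 (1.17, 0.984 to 1.39). The change of the ratio between days was not tested, since each day is 1 pool.

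Within a day the *Ccnd1* level followed the number of *Notch1* UMIs. On day 3 it was 179 CPM in cells with 0 *Notch1* UMIs, 233 with 1, 328 with 2, 481 with 3 and 827 with 4 or more, and on day 6 it was 187, 235, 410, 518 and 973 CPM. Thinned to 5000 UMIs, the mean was 3.07 against 0.835 *Ccnd1* UMIs a cell on day 3 and 3.71 against 0.896 on day 6. Individual cells varied widely: in *Notch1*-high cells the quartiles of the thinned count were 0 and 4 UMIs on day 3 and 0 and 5 on day 6, with 20 and 26 in the highest cell. Without thinning, 55 of 73 and 120 of 171 *Notch1*-high cells held a *Ccnd1* UMI.

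Most levels passed over the limit at 3 *Notch1* UMIs without a step. Cells just outside it, with 2 *Notch1* UMIs, numbered 54 on day 3 and 160 on day 6, and cells just inside, with 3, numbered 40 and 77. *Nrarp* was at 28.0 CPM outside and 28.4 CPM inside on day 3 and at 18.6 and 23.0 CPM on day 6, *Hes1* at 184 and 260 CPM and at 355 and 367 CPM, and *Wfdc2* at 500 and 371 CPM and at 205 and 202 CPM. *Ero1l* was the exception among the genes plotted, at 95.7 and 42.7 CPM and at 205 and 119 CPM. Depth changed by degrees as well, with median UMIs on day 6 of 11315.5, 12223.5, 12776.5, 14868 and 15443.5 from 0 to 4 or more *Notch1* UMIs.

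**Figure D2:**
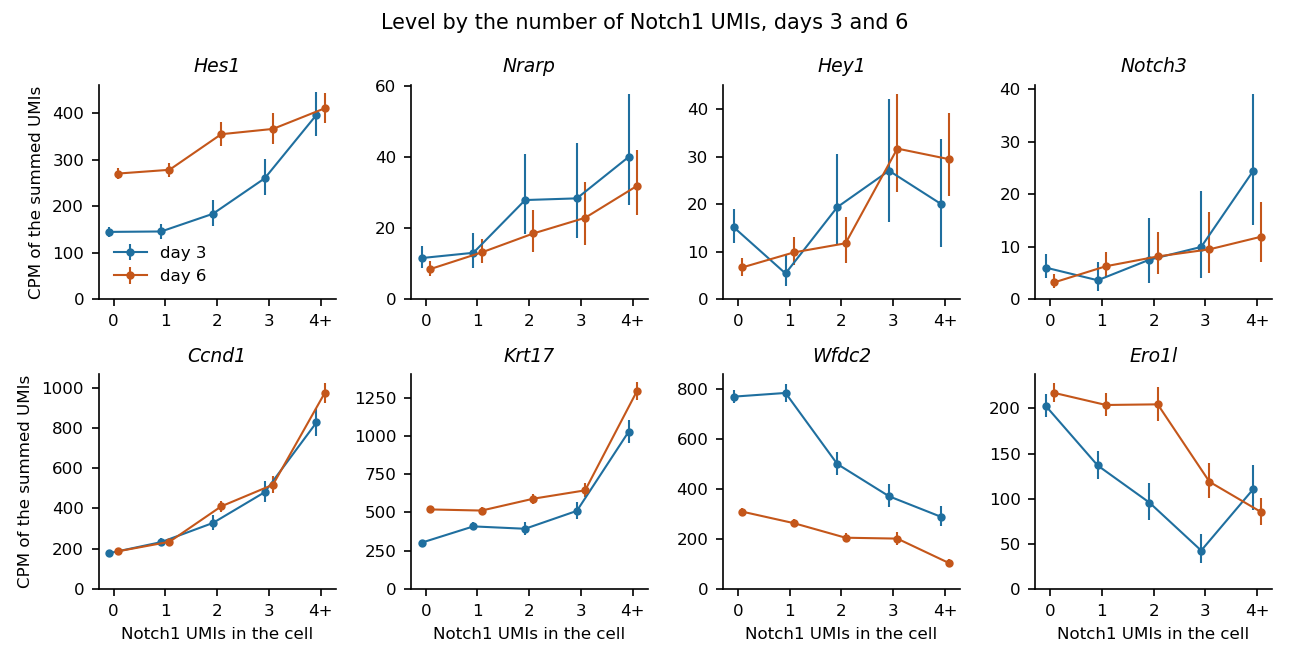
CPM of the summed UMIs (linear axes from 0) of 8 genes in cells grouped by their number of *Notch1* UMIs, on day 3 (blue) and day 6 (orange), with bars for exact 95% Poisson intervals of the counts. *Ccnd1* went from 179 to 827 CPM on day 3 and from 187 to 973 CPM on day 6 between 0 and 4 or more *Notch1* UMIs, while *Wfdc2* went from 770 to 289 CPM and from 310 to 104 CPM.

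Cell cycle genes formed the largest group among the genes called higher. Of 37 tested G2/M genes, which act in mitosis and the preparation for it, 17 were called higher and 0 lower, against 1.09% of all tested genes. The median log2 ratio was 0.59 on day 3 and 0.76 on day 6, and 36 and 37 of the 37 were above 0. *Mki67*, the common proliferation marker, was at 111 against 54.7 CPM (ratio 2.03, 1.66 to 2.49) and 135 against 62.4 CPM (2.16, 1.88 to 2.47). *Top2a*, the topoisomerase that untangles replicated chromosomes, was at 235 against 133 CPM and 284 against 116 CPM, and *Ube2c*, which directs mitotic cyclins to degradation, at 358 against 203 CPM and 281 against 151 CPM. The mitotic genes *Pbk*, *Nusap1*, *Prc1* and *Spc24* were also among the 15 named genes, with ratios between 1.80 and 2.62. Without cells holding markers of other types, *Mki67*, *Top2a*, *Nusap1* and *Prc1* were under 1.5-fold on day 3, at log2 ratios of 0.44, 0.30, 0.43 and 0.37, and between 0.93 and 1.56 on day 6.

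S phase genes were nearer to equal. Of 27 tested, 1 (*Atad2*) was called higher, with list medians of 0.22 and 0.45. The histone genes *Hist1h1e*, *Hist1h1b* and *Hist1h2ap*, which are made in S phase, were at ratios between 1.83 and 2.78 on both days. They have near-identical copies, so their counts are uncertain. Weighted by depth, all 3 were under 1.5-fold, with log2 ratios between 0.086 and 0.22 on day 6.

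The cell cycle difference moved with depth. With *Notch1* = 0 cells weighted to the depth of the *Notch1*-high cells, the G2/M median was 0.20 on day 3 and -0.12 on day 6, *Mki67* was at log2 ratios of 0.63 and 0.07 and *Top2a* at 0.39 and 0.14, and the calls of *Pbk*, *Nusap1*, *Prc1* and *Spc24* ended too. This weighting rested on few deep *Notch1* = 0 cells, as few as 3 on day 3 and 2 on day 6 in 1 of 10 depth bins. Without bins of under 20 such cells, which left out 41.1% and 20.5% of the *Notch1*-high cells, the G2/M median was 0.07 and -0.10. The thinned cells kept the difference in their means but less in their medians: the S and G2/M genes together had a mean of 30.6 against 23.0 UMIs and a median of 16 against 11 on day 3, and a mean of 31.0 against 21.4 and a median of 13 against 11 on day 6. The upper quartile was 49 against 26 UMIs and 54 against 19, so the groups differed most in their cells of highest cell cycle expression. Cell cycle state and depth therefore cannot be told apart for these genes.

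*Fmo2*, *Tst*, *Krt17*, *Krt6a* and *Agpat5* were the named higher genes with no part in the cell cycle. *Fmo2*, a flavin-containing monooxygenase, was at 113 against 41.7 CPM on day 3 (ratio 2.71, 2.18 to 3.35) and 165 against 45.2 CPM on day 6 (3.66, 3.18 to 4.21). It was higher on days 0 and 1 too, at 48.0 against 18.2 CPM (2.63, 1.91 to 3.60) and 62.5 against 15.1 CPM (4.13, 2.96 to 5.73). *Tst*, which encodes the mitochondrial sulfurtransferase rhodanese, was at 55.0 against 22.8 CPM (2.41, 1.78 to 3.25) and 52.1 against 14.8 CPM (3.53, 2.75 to 4.54), and *Agpat5*, an acyltransferase of phospholipid synthesis, at 82.8 against 43.1 CPM (1.92, 1.52 to 2.42) and 108 against 47.8 CPM (2.27, 1.95 to 2.65). *Ccnd1*, *Fmo2*, *Tst* and *Agpat5* stayed past 1.5-fold on both days in all 13 alternatives.

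*Krt17*, a keratin of basal and injured epithelium, was at 768 against 303 CPM on day 3 (ratio 2.53, 2.34 to 2.74) and 1006 against 520 CPM on day 6 (1.93, 1.84 to 2.03). It was higher on day 0 (808 against 366 CPM) and day 1 (440 against 257 CPM) as well, and stayed past 1.5-fold in 12 of the 13 alternatives. *Krt6a*, a keratin of stratified epithelium, was at 52.1 against 19.3 CPM (2.70, 1.96 to 3.71) and 61.9 against 30.7 CPM (2.02, 1.65 to 2.46). Without the limits on *Vcan*, *Krt4* and *Psca* its day 3 log2 ratio was -0.68, and under the cell cycle median its day 6 log2 ratio was 0.43. Both keratins have close paralogs, so part of their reads may have been shared or left uncounted.

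The other basal markers did not follow *Krt17* on both days. Of 22 tested, 1 was called higher and 1 lower (*Dlk2*), against 1.09% and 0.969% of all tested genes. The medians were 0.09 on day 3 and -0.47 on day 6. On day 3, 14 of the 22 were above 0, the highest at a log2 ratio of 1.97, and on day 6 only 1 was. The 24 measured summed to a ratio of 1.28 (1.26 to 1.30) on day 3 and 0.907 (0.895 to 0.919) on day 6. *Krt15* had ratios of 1.27 (1.24 to 1.30) and 0.959 (0.941 to 0.977), *Krt14* of 1.19 (1.14 to 1.25) and 0.731 (0.707 to 0.756), and *Krt5* of 1.51 (1.43 to 1.59) and 0.905 (0.875 to 0.936). The basal regulator *Trp63* was at 77.8 against 89.6 CPM and 89.9 against 144 CPM. The day 6 direction turned with depth and cell cycle: the log2 ratio of *Krt5* was 0.48 and that of *Krt14* 0.28 when weighted by depth, and 0.30 and 0.14 under the cell cycle median.

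**Figure D3:**
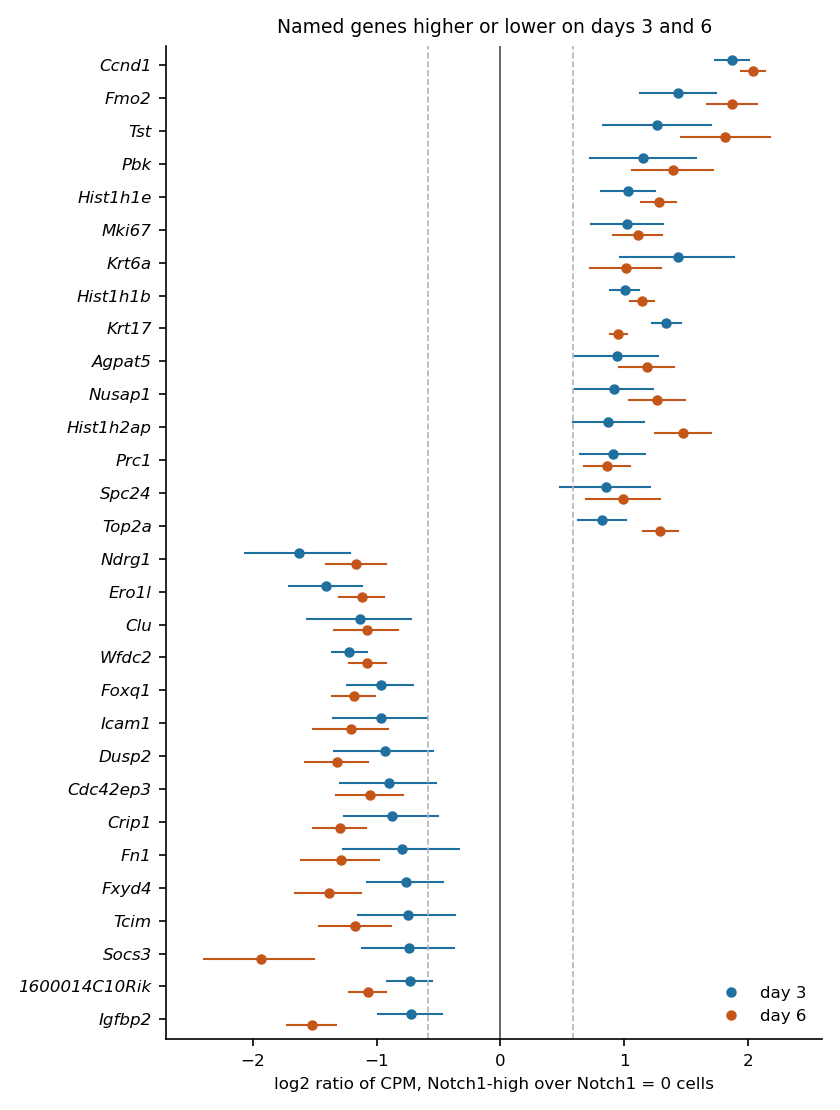
Ratio of CPM between *Notch1*-high and *Notch1* = 0 cells, on a log2 axis, for the 15 named genes called higher and the 15 called lower, on day 3 (blue) and day 6 (orange), with bars for exact 95% intervals of the counts and dashed lines at 1.5-fold. These genes were named for lying past 1.5-fold on both days, so their sides are fixed by the choice. *Ccnd1* stands at 3.66-fold and 4.12-fold, and *Socs3* on day 6 at a ratio of 0.262.

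Luminal genes gave a mixed result. Of 11 tested luminal genes 0 were called higher and 1 lower, *Krt19*, at 696 against 1089 CPM (ratio 0.639, 0.596 to 0.685) and 678 against 1081 CPM (0.627, 0.596 to 0.659). Its call held in only 4 of the 13 alternatives, with log2 ratios of -0.62 and -0.57 when weighted by depth, -0.37 and -0.38 under the cell cycle median, and -0.07 on day 3 without cells holding markers of other types. *Krt8* was at ratios of 0.915 (0.859 to 0.974) and 1.26 (1.20 to 1.31), and *Krt18* at 0.898 (0.846 to 0.952) and 1.04 (0.989 to 1.08). Of 12 tested markers of proximal luminal cells, the castration-resistant cells near the urethra in the adult gland, 3 were called lower (*Wfdc2*, *Clu* and *Nupr1*) and 0 higher. Over all tested genes 0.969% were called lower and 1.09% higher. The medians of this list were -0.60 and -0.35. *Krt4* and *Psca*, also markers of these cells, were limited by raw UMIs, more strictly in CPM for the deeper *Notch1*-high cells. The values of this list may therefore be partly set by the choice. Without cells holding markers of mesonephric duct or urothelium the day 3 median was 0.03 and that of day 6 -0.52.

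*Wfdc2*, which encodes a secreted protease inhibitor and is on both the proximal luminal and the mesonephric list, was the 1 gene of the 15 named as lower that kept its call throughout. It was at 330 against 770 CPM on day 3 (ratio 0.429, 0.389 to 0.473) and 147 against 310 CPM on day 6 (0.475, 0.427 to 0.527), after 347 against 532 CPM on day 0 and 436 against 789 CPM on day 1, and it stayed past 1.5-fold in all 13 alternatives. *Clu*, the chaperone clusterin, was at 40.0 against 87.5 CPM and 51.1 against 108 CPM. Its log2 ratio was -0.54 on day 3 when weighted by depth and -0.29 on day 6 under the cell cycle median, both under 1.5-fold. Without cells holding markers of the other types its day 3 log2 ratio was 0.58, that of *Foxq1* 0.30 and that of *Dusp2* 0.21, each on the opposite side. *Foxq1*, a forkhead factor on the urothelium list, was at 96.4 against 189 CPM and 112 against 253 CPM in the comparison of all cells.

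The 14 tested regulators of bud development had medians of 0.08 and 0.07 and none was called. *Hoxb13* and *Shh* had intervals that included 1 on both days.

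*Ndrg1* and *Ero1l* led the genes called lower. *Ndrg1*, a stress and androgen response gene, was at 37.1 against 115 CPM on day 3 (ratio 0.324, 0.239 to 0.431) and 59.1 against 132 CPM on day 6 (0.447, 0.377 to 0.526). *Ero1l*, the oxidase that forms disulfide bonds in the endoplasmic reticulum, was at 76.4 against 203 CPM (0.377, 0.306 to 0.461) and 100 against 217 CPM (0.461, 0.405 to 0.522). Each lost its call in 1 of the alternatives, *Ndrg1* when weighted by depth (log2 ratio of -0.57 on day 6) and *Ero1l* with cells of 2 or more *Notch1* UMIs (-0.58 on day 6). On day 0 both intervals had included 1, with *Ndrg1* at 24.0 against 22.4 CPM and *Ero1l* at 30.6 against 32.9 CPM. Most genes on the list of hypoxia and glycolysis genes, which does not hold *Ndrg1* or *Ero1l*, were lower by a small amount. Of 24 tested, 22 were below 0 on day 3 and 24 on day 6, and 0 were called. The medians were -0.29 and -0.33, against 0.01 and 0.03 over all tested genes. The glycolytic enzyme genes *Pgk1* and *Gapdh* had ratios of 0.70 (0.664 to 0.736) and 0.80 (0.773 to 0.828) on day 3 and 0.678 (0.655 to 0.702) and 0.804 (0.784 to 0.823) on day 6. Weighted by depth the medians were -0.19 on both days.

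Several other named lower genes encode inflammatory or signalling products. *Icam1*, an adhesion molecule for leukocytes, was at 48.5 against 94.8 CPM and 37.8 against 87.2 CPM, after 36.4 against 34.6 CPM on day 0 and 58.8 against 58.2 CPM on day 1. *Socs3*, an inhibitor of cytokine signalling, was at 51.4 against 85.6 CPM (ratio 0.600, 0.460 to 0.772) and 16.8 against 64.2 CPM (0.262, 0.190 to 0.352). It was the 1 gene called among 20 tested immediate early genes, whose medians were -0.05 and -0.41. *Dusp2*, a phosphatase of MAP kinases, had ratios of 0.524 and 0.40, *Igfbp2*, which binds insulin-like growth factors, of 0.606 and 0.348, and the matrix gene *Fn1* of 0.578 and 0.409. The remaining named lower genes were *Cdc42ep3*, *Crip1*, *Fxyd4*, *Tcim* and *1600014C10Rik*, with ratios between 0.382 and 0.602. Without cells holding markers of other types, the calls of *Icam1*, *Socs3*, *Crip1*, *Fxyd4*, *Tcim* and *1600014C10Rik* ended, with day 3 log2 ratios of -0.15, -0.06, -0.49, -0.39, -0.24 and -0.13, while day 6 values lay between -3.17 and -1.06. Weighting by depth ended the calls of *Crip1* (-0.46 on day 3) and *Cdc42ep3* (-0.54 on day 6), thinning those of *Fxyd4* (-0.56) and *Tcim* (-0.40 on day 3), and the cell cycle median those of *Dusp2* (-0.35) and *1600014C10Rik* (-0.38 on day 3). A stricter call of the day ended those of *Socs3* and *Igfbp2* (-0.32 and -0.45 on day 3). Counting cells of 2 or more *Notch1* UMIs as high ended those of *Socs3*, *Igfbp2* and *Fn1* (-0.44, -0.57 and -0.56 on day 3). Without the limits on *Vcan*, *Krt4* and *Psca*, those of *Socs3*, *Igfbp2*, *Fn1*, *Cdc42ep3*, *Fxyd4* and *Tcim* ended (between -0.55 and -0.31 on day 3). *Igfbp2* also lost its call under the cell cycle median with depth weighting (-0.57 on day 3). *Fn1* was the only gene called among 17 tested matrix and integrin genes, with medians of -0.01 and -0.40.

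Other lists held few calls, to be set against 1.09% of all tested genes called higher and 0.969% called lower. Of 8 tested genes of stratified and squamous epithelium 1 was called higher (*Krt6a*), of 10 EGF and FGF pathway genes 1 was higher (*Areg*), of 2 mesenchyme markers 1 was higher (*Vim*), of 5 steroid response genes 1 was lower (*Ndrg1*), of 4 urothelium markers 1 was lower (*Foxq1*), and of 3 mesonephric markers 2 were lower (*Wfdc2* and *Hoxb7*). None of 11 integrated stress response genes and none of 7 prostatic epithelium markers was called. *Areg*, a ligand of the EGF receptor, was at 37.8 against 20.1 CPM and 22.0 against 12.1 CPM. Neuroendocrine and neural genes were close to 0 in the *Notch1*-high cells, with 6 of 7 genes at 0 on day 3 and 4 of 7 on day 6. They summed to 1 against 97 UMIs on day 3 and to 6 against 4 UMIs on day 6 (ratio 4.09, 0.969 to 19.7). Of the 97 UMIs, 35 were of *Chga*, from 3 of 320 cells with 32 in 1 cell.

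**Figure D4:**
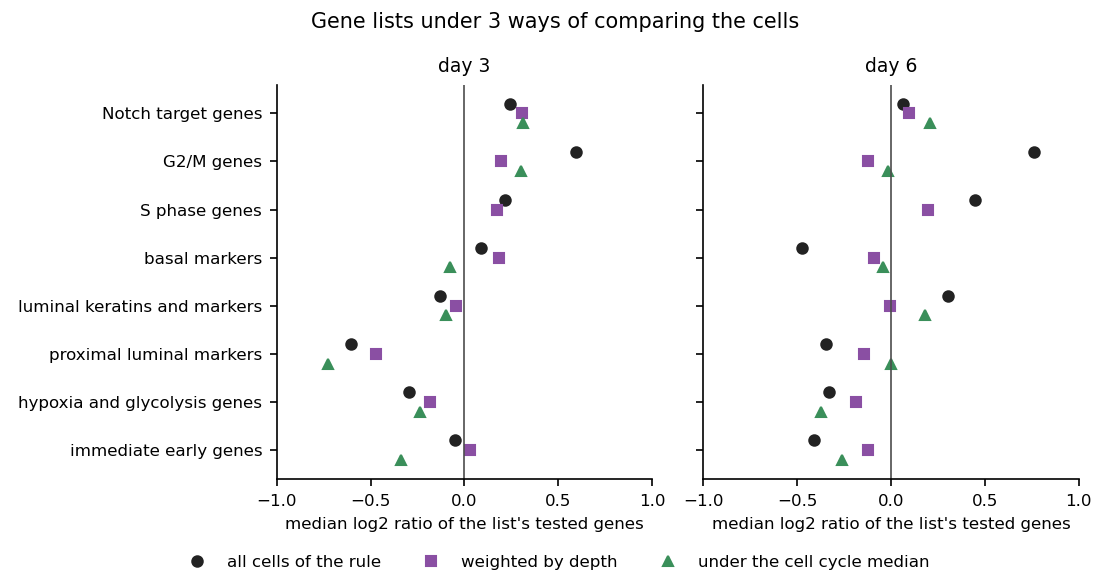
Median log2 ratio of the tested genes of 8 lists on day 3 (left) and day 6 (right), for all cells of the rule (black circles), with *Notch1* = 0 cells weighted by depth (purple squares), and for cells under the median of cell cycle expression (green triangles, left out for the S phase list, which kept too few tested genes). The G2/M median on day 6 went from 0.76 to -0.12 and -0.02, while hypoxia and glycolysis genes stayed below 0 in all 3. The cells of the triangles were chosen by a low share of S phase and G2/M UMIs, so the -0.02 was partly set by that choice.

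The same rule was applied to days 0 and 1 to see how far the pattern preceded days 3 and 6. Of 4308 genes with enough counts on those days, 0.395% were 1.5-fold higher and 0.557% 1.5-fold lower on both. Of the 56 genes called higher on days 3 and 6, 38 could be measured earlier. Of these, 5 were higher and 0 lower on both day 0 and day 1, with median log2 ratios of 0.28 and 0.21. Of the 50 genes called lower, 38 could be measured, 12 were lower and 0 higher on both earlier days, and the medians were -0.36 and -0.41. *Nrarp* was at 12.4 against 7.75 CPM on day 0 and 17.7 against 9.29 CPM on day 1, and *Hes1* at 524 against 366 CPM and 259 against 164 CPM. The genes therefore fell into those that differed from day 0, such as *Fmo2*, *Krt17* and *Wfdc2*, and those close to equal on day 0, such as *Ndrg1*, *Ero1l* and *Icam1*, with *Ccnd1* between them.

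**Figure D5:**
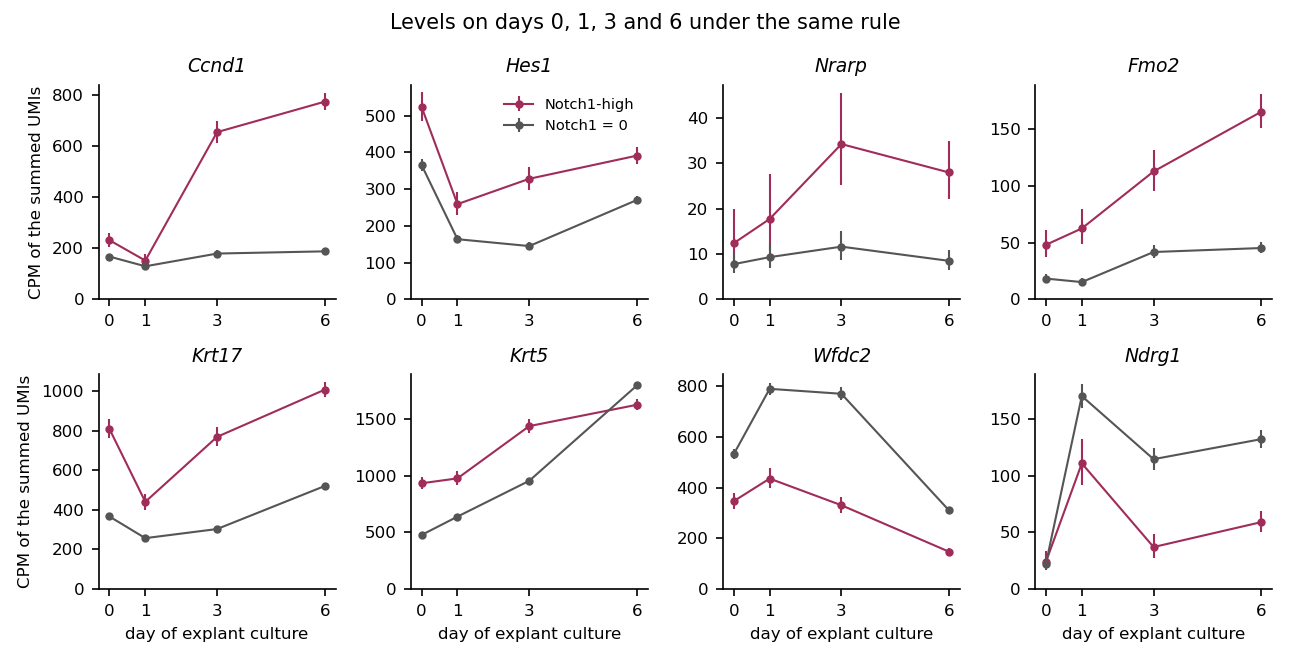
CPM of the summed UMIs (linear axes from 0) of 8 genes by day of explant culture in *Notch1*-high (red) and *Notch1* = 0 cells (grey) chosen by the same rule, with bars for exact 95% Poisson intervals of the counts, which are not a spread between explants. *Ccnd1* reached 653 and 772 CPM in *Notch1*-high cells on days 3 and 6 and stayed between 129 and 187 CPM in the others, and *Krt5* was higher in *Notch1*-high cells up to day 3 and lower on day 6.

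In the genome build of the files, GRCm38, *Notch1* lies on the minus strand of chr2:26457903-26516663 and *Nrarp* on the plus strand of chr2:25180758-25183339. *Hes1* lies at chr16:30064384-30067796, *Hey1* at chr3:8663359-8667256 and *Ccnd1* at chr7:144929931-144939925. Among the most stable genes, *Fmo2* lies at chr1:162874317-162898726, *Tst* at chr15:78399556-78405907 and *Wfdc2* at chr2:164562413-164568510. All are protein-coding genes, and the 3′ libraries count RNA mostly near their last exons, so no isoform could be resolved.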

How the data were processed

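The authors sequenced 10x Genomics 3′ v3 libraries and, per the submitters' processing notes, ran Cell Ranger 3.1.0 on mm10 (GRCm38). The deposited values are raw UMI counts of 31053 genes per cell and raw MULTI-seq barcode counts, without normalization. The 3 adult libraries were only counted: 5, 5 and 6 of their cell barcodes also occur in the explant library. Counting used python 3.11.15, numpy 2.4.6, scipy 1.17.1, pandas 2.3.3 and matplotlib 3.10.9.

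UMIs were summed per group and day. The ratio of CPM was given with the exact conditional interval of 2 counts. Genes were tested where the pooled share predicted at least 30 UMIs in the *Notch1*-high sum on each day, and called at 1.5-fold in the same direction on both. Named were the 15 highest and 15 lowest called genes at 50 CPM or more in the higher group on both days, ranked by the smaller log2 ratio, and members of gene lists. The cells, lists and tests were chosen with earlier results of these data known. Barcodes remove doublets between days only. No doublet caller was run, and leaving out cells over the 90th percentile of UMIs was an alternative. Weighting by depth used 10 bins, thinning used seed 1, and the ratios were checked on simulated counts. Some genes are not reported here. Coordinates are from GENCODE M21.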

Additional observations from a re-analysis of the deposited data

Results flagged for a closer look

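Among the listed genes, 2 differed at 1.5-fold or more in opposite directions on days 3 and 6, with counting intervals that left out 1 on each day. *Ly6d*, a surface protein of stratified epithelium, had a log2 ratio of -1.36 on day 3 (25.7 against 65.7 CPM) and 0.66 on day 6 (97.2 against 61.5 CPM), after 1.17 on day 0 and 2.07 on day 1. *Ccne2*, a cyclin of the entry into S phase, had -1.25 on day 3 (6 against 49 UMIs) and 0.86 on day 6 (30 against 45 UMIs). The difference between the days was not tested, because each day is 1 pool.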

How the results depend on the processing

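No paired analysis was possible because the comparison has 1 library and 1 pool per day, and leaving out a replicate was not possible for the same reason. Against 56 genes higher and 50 lower in the comparison as reported, weighting by depth gave 36 genes higher (16 of them among the 56), a stricter call of the day 28, at least 10 predicted UMIs 146 higher and 139 lower, at least 100 predicted UMIs 13 and 20, leaving out cells over the 90th percentile of UMIs 36 higher, cells under the cell cycle median 14 higher and 21 lower, no limits on *Vcan*, *Krt4* and *Psca* 86 higher, leaving out cells with markers of other types 24 and 19, both cycle and depth 26 and 23, and weighting without bins of under 20 cells 32 higher. Only 12 of the 24 and 11 of the 19 were among the genes called as reported. The number of *Notch1*-high cells was 127 at 4 or more *Notch1* UMIs, 458 at 2 or more, 98 under the cell cycle median, 516 without the limits and 160 without cells of other types, against 244. Thinning to 5000 UMIs, the mean of the cells' own CPM, totals without the 50 most abundant genes and both other *Notch1* limits kept the counts of genes within 1.5 times, as did every count not given here.

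The following directions of called genes and of list medians past 1.5-fold turned, as log2 ratios. Weighted by depth, day 6 gave *Prc1* -0.30, *Spc24* -0.41 and the G2/M median -0.12, and without thin bins *Prc1* -0.21 and the G2/M median -0.10. Under the cell cycle median, *Mki67* was at -0.088 and *Top2a* at -1.09 on day 3, and *Prc1* at -0.97 and the G2/M median at -0.018 on day 6. With depth weighting added, *Mki67* was at -0.080, *Top2a* at -1.17 and *Dlk2* at 0.069 on day 3, and *Prc1* at -1.21, *Spc24* at -0.53 and *Top2a* at -0.23 on day 6. The cells under this median were chosen by a low share of S phase and G2/M UMIs, so their values of cell cycle genes were partly set by that choice. Without the limits on *Vcan*, *Krt4* and *Psca*, *Krt6a* was at -0.68 on day 3. Without cells of other types, *Clu* was at 0.58, *Foxq1* at 0.30, *Dusp2* at 0.21 and the proximal luminal median at 0.030 on day 3. Among genes not called, *Dlk1* and *Notch3* on day 3 and *Krt5*, *Krt14* and *Krt15* on day 6 turned as well, reaching 0.61, -0.38, 0.57, 0.60 and 0.74 under the cell cycle median with depth weighting, and *Hey1* on day 3 was at -0.09 with a stricter call of the day. The cause was not tested. Over all alternatives, 16 values of called genes and 4 list medians turned, 499 gene values and 120 medians moved beyond their interval or quartiles and 2167 and 478 did not. The comparison without cells of other types, that of both cycle and depth and that without thin bins were chosen after seeing the data. Depth limits ligands, receptors and Hey genes, many with under 30 UMIs in a sum.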
